A study of Homo sapiens with 12 samples.

Results

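Matriptase, its partner prostasin, their membrane inhibitors and a set of related cell surface proteases were followed as 8 genes picked by symbol, namely *ST14*, *PRSS8*, *SPINT1*, *SPINT2*, *TMPRSS4*, *TMPRSS2*, *TMPRSS11E* and *HPN*. All 8 were present among the 23346 genes of the expression table, and all 8 were among the 16236 genes whose mean reached 0.1 RPKM (reads scaled to the length of the gene and the size of the library) and which were tested. *TMPRSS11E* reached that mean only through positive CFPAC-1 cells (group mean 3.80 RPKM, at most 0.122 RPKM in any other group). *HPN* did so only through negative CFPAC-1 cells (group mean 0.653 RPKM, at most 0.191 RPKM in any other group). Their passing the filter thus rests on the group where they are high and says nothing of a difference. Counts of called members that include them carry this limit. RNA was sequenced from 2 human pancreatic adenocarcinoma lines, SW1990 and CFPAC-1, which had been stained with the monoclonal antibody GCTM-5 and sorted. The gates kept strongly stained cells (GCTM-5 positive) and unstained cells (GCTM-5 negative), and 3 samples of each population were taken from each line, giving 4 groups and 12 samples. No drug, gene edit or time course was applied, and each line stands for a single tumour grown in culture. The shallowest library held 9969697 reads (positive CFPAC-1 replicate 3) and the deepest 26159330 (replicate 1 of the same group). In a principal component analysis PC1 separated the lines with 69.2% of the variance.

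Matriptase, the product of *ST14*, is a serine protease anchored in the plasma membrane of most epithelia, and prostasin, the product of *PRSS8*, is a lipid-anchored protease with which it activates in a shared cascade. Their activity is held in check by the Kunitz-type inhibitors HAI-1 (*SPINT1*) and HAI-2 (*SPINT2*), which sit in the same membranes. The cascade is known for its role in epithelial barrier formation and for the activation of growth factors and receptors at the cell surface. Here only RNA was measured, which gives neither the amount of protein nor its activity.

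In SW1990 the whole core of this pathway was higher in GCTM-5 positive cells. *ST14*, *PRSS8*, *SPINT1*, *SPINT2* and *TMPRSS4* were called higher, with log2 fold changes between 1.57 (*SPINT2*) and 3.59 (*PRSS8*) on the log2(RPKM + 0.1) scale. In CFPAC-1 none of these 5 was called in either direction, and *TMPRSS11E* was the member called higher. A gene was called when it passed 2-fold with an unadjusted p under 0.01 in limma. The study states 2-fold and 0.01 and does not say whether its p was adjusted. By this criterion 5 of 8 members were higher and 0 of 8 lower in SW1990, against 4.59% of all genes higher and 7.48% lower. In CFPAC-1 1 of 8 was higher and 0 of 8 lower, against 5.65% of all genes higher and 4.13% lower. The 1 higher was *TMPRSS11E*, which was tested only because of its level in positive CFPAC-1 cells. The 0 lower in SW1990 was also 0 at an unadjusted p under 0.05 and with voom, whereas in CFPAC-1 5 members were lower at an unadjusted p under 0.05 and voom called 2, *TMPRSS2* and *TMPRSS4*. Shares of all genes by these other rules are not given, so these counts have no background to be read against. The median log2 fold change of the members was 1.64 in SW1990, where that of all genes was -0.04, and 2.49 without *TMPRSS11E* and *HPN*, which had at most 3 reads in each SW1990 sample. In CFPAC-1 the median was -0.71 for the members and 0.05 for all genes.

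**Figure D1:**
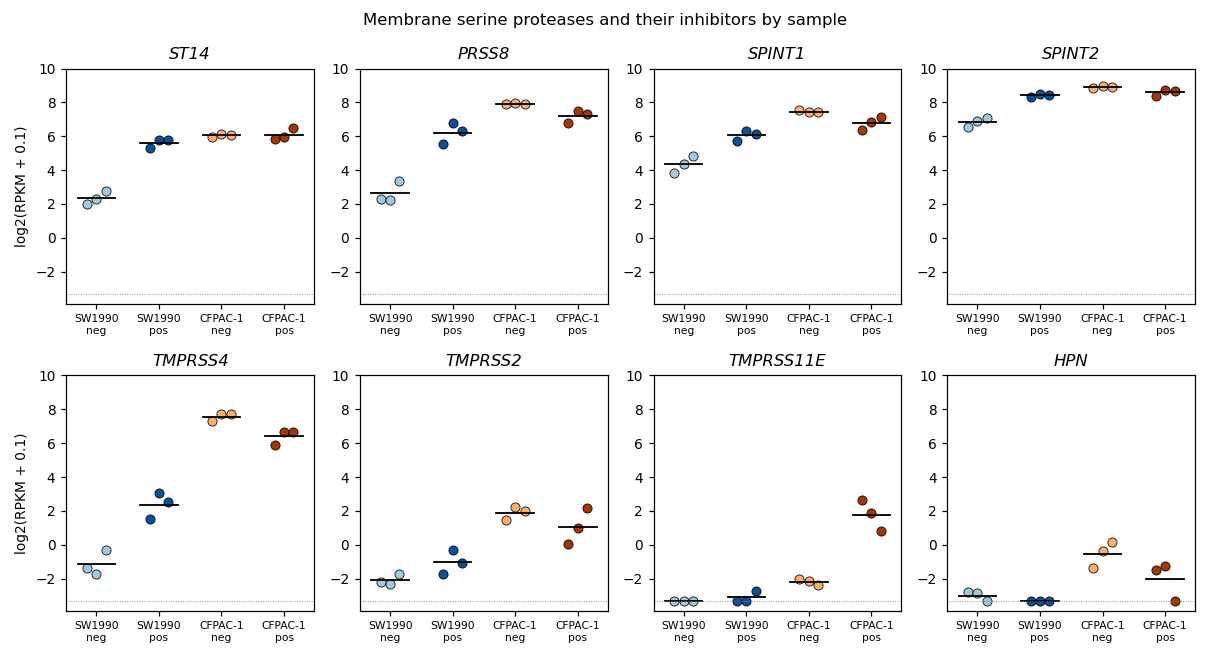
RPKM of each of the 8 genes (vertical axis, log scale) in the 12 samples by group, with a point for each sample and a bar for the group mean. For *ST14* the negative SW1990 samples lie between 3.97 and 6.65 RPKM and every other sample lies at 40.2 RPKM or above.

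*ST14* lies on chromosome 11 (GRCh37, chr11:130029677-130080257, plus strand). In negative SW1990 cells it was at 3.97, 4.71 and 6.65 RPKM, and in positive SW1990 cells at 40.2, 54.5 and 54.5 RPKM. The highest negative sample was thus far below the lowest positive sample. The fitted log2 fold change was 3.28 (SE 0.20, limma adjusted p = 3.80e-07), a 9.69-fold difference. In CFPAC-1 the gene was at 62.8, 69.3 and 67.9 RPKM in negative cells and at 56.4, 62.6 and 89.0 RPKM in positive cells, which overlapped. Its log2 fold change there was 0.03 with a 95% interval from -0.41 to 0.47, and its sign turned with the scaling, to -0.070 when samples were centred on their median and -0.041 after quantile normalization. In order of mean, positive CFPAC-1 cells (69.3 ± 17.3 RPKM, SD, n = 3) and negative CFPAC-1 cells (66.7 ± 3.42) could not be separated, positive SW1990 cells followed without overlap (49.7 ± 8.26), and negative SW1990 cells came last (5.11 ± 1.38).

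*PRSS8*, which encodes prostasin, lies on chromosome 16 (chr16:31142754-31147048, minus strand). It was at 4.82, 4.58 and 10.1 RPKM in negative and at 46.8, 109 and 79.9 RPKM in positive SW1990 cells. Every positive sample was above every negative one, by a log2 fold change of 3.59 (SE 0.33, limma adjusted p = 7.58e-06). CFPAC-1 ran the other way, with 244, 247 and 238 RPKM in negative cells and 109, 182 and 156 RPKM in positive cells. These groups did not overlap either, yet the log2 fold change of -0.74 (SE 0.33) did not pass the threshold (limma adjusted p = 0.0978). Positive cells of the lines overlapped, at 149 ± 37.2 RPKM in CFPAC-1 and 78.6 ± 31.3 RPKM in SW1990 (SD, n = 3).

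The inhibitors were higher in positive SW1990 cells too, at fitted fold changes below those of *ST14* and *PRSS8*. *SPINT1* (chr15:41136216-41150405, plus strand), which encodes HAI-1, was at 14.4, 20.6 and 27.9 RPKM in negative and at 52.2, 80.6 and 69.2 RPKM in positive SW1990 cells, a log2 fold change of 1.71 (SE 0.24, limma adjusted p = 0.000211). In CFPAC-1 it was at 188, 169.8 and 171 RPKM in negative and at 82.8, 112 and 140.3 RPKM in positive cells. Here the positive samples were all below the negative ones, by a log2 fold change of -0.69 (SE 0.24, unadjusted p = 0.0149, limma adjusted p = 0.0428), which missed both the 2-fold and the p threshold.

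*SPINT2* (chr19:38734675-38783255, plus strand), which encodes HAI-2, had the highest RPKM of the 8 genes in each of the 4 group means. It was at 93.2, 119.8 and 135 RPKM in negative and at 314, 367 and 345 RPKM in positive SW1990 cells, again without overlap, with a log2 fold change of 1.57 (SE 0.14, limma adjusted p = 5.00e-06). The CFPAC-1 samples were at 466, 508 and 491 RPKM when negative and at 335, 417 and 414 RPKM when positive. The log2 fold change in that line was -0.33 (SE 0.14, limma adjusted p = 0.0745). *SPINT2* of positive cells differed between the lines by a log2 value of -0.18 (SW1990 minus CFPAC-1) with a 95% interval from -0.48 to 0.12, and the samples overlapped.

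*TMPRSS4* (chr11:117947727-117992605, plus strand), a transmembrane protease known for its high levels in pancreatic cancer, had the widest gap between the negative cells of the lines among the 8 genes. It was at 0.289, 0.207 and 0.720 RPKM in negative SW1990 cells and at 2.82, 8.14 and 5.56 RPKM in positive ones, a log2 fold change of 3.48 (SE 0.40, limma adjusted p = 4.33e-05). CFPAC-1 held 157, 208 and 211 RPKM in negative cells and 60.2, 101 and 101 RPKM in positive cells. The 4 groups were separated from each other in every sample. In CFPAC-1 the log2 fold change was -1.17 (SE 0.40), past 2-fold with an unadjusted p of 0.0128 and a limma adjusted p of 0.0382, just outside the criterion. It passed in 9 of the 23 alternatives tried, among them voom on the recovered reads (unadjusted p = 0.000188) and the fits without negative SW1990 replicate 3 or without positive SW1990 replicate 1 or 2, which share its estimate of the spread. Without positive CFPAC-1 replicate 1 the log2 fold change was -0.92, under 2-fold.

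*TMPRSS2* (chr21:42836227-42903043, minus strand), an androgen-responsive protease of the prostate and airway, was low in both lines. The SW1990 samples held 0.117, 0.104 and 0.204 RPKM when negative and 0.202, 0.710 and 0.374 RPKM when positive, from 8 to 40 reads each, and the groups overlapped. The log2 fold change of 1.04 (SE 0.49) was not called (limma adjusted p = 0.145). In CFPAC-1 negative cells were at 2.65, 4.57 and 3.88 RPKM and positive cells at 0.921, 1.85 and 4.44 RPKM, which overlapped as well (log2 fold change -0.83, SE 0.49, limma adjusted p = 0.207). Without positive CFPAC-1 replicate 3, the shallowest library, it was called lower at a log2 fold change of -1.40 (unadjusted p = 0.00839). Without positive CFPAC-1 replicate 1, the lowest of its group, the log2 fold change was -0.32 and was not called. *TMPRSS2* overlaps *MX1* on the opposite strand, and whether counting used strand is not stated. Mean *MX1* was 98.2 RPKM in SW1990 cells when negative and 72.4 RPKM when positive, and 23.5 and 19.5 RPKM in those of CFPAC-1. Its part in the *TMPRSS2* values was not tested.

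*HPN* (chr19:35531410-35557477, plus strand), which encodes hepsin, a protease of liver cells, was near the limit of the depth. SW1990 samples held at most 2 reads, and no fold is given between them. In CFPAC-1 negative cells were at 0.282, 0.657 and 1.02 RPKM and positive cells at 0.259, 0.315 and 0 RPKM, from 13 to 48 and from 0 to 16 reads. These groups overlapped, and the log2 fold change of -1.48 (SE 0.52, unadjusted p = 0.0150, limma adjusted p = 0.0429) did not pass the p threshold. It was -0.83 without positive CFPAC-1 replicate 3, the library with 0 reads, and -0.48 without both CFPAC-1 samples of that number, whereas without positive replicate 2 it was -1.86 and called (unadjusted p = 0.00645), as it was without negative replicate 1 at -1.90 (unadjusted p = 0.00484).

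*TMPRSS11E* (chr4:69313181-69363322, plus strand), a transmembrane protease of squamous epithelia, was the member with the opposite pattern. It had 0 reads in the negative SW1990 samples and 0, 0 and 2 reads in the positive ones. In CFPAC-1 it was at 0.144, 0.128 and 0.0939 RPKM in negative cells (6, 6 and 4 reads) and at 6.19, 3.57 and 1.64 RPKM in positive cells (346, 143 and 35 reads). All positive samples were above all negative ones, with a ratio of mean RPKM of 31.1 and a log2 fold change of 3.95 (SE 0.40, limma adjusted p = 4.35e-05) on the log2(RPKM + 0.1) scale, which understates a change from so low a level. The positive samples spread from 1.64 to 6.19 RPKM among themselves. Positive CFPAC-1 replicate 1 was the highest of them for *TMPRSS11E* and the lowest for *ST14*, *PRSS8*, *SPINT1*, *SPINT2*, *TMPRSS2* and *TMPRSS4*. Without that sample the CFPAC-1 log2 fold changes were nearer 0 for *PRSS8* (-0.53), *SPINT1* (-0.48) and *SPINT2* (-0.23).

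Stretches before the starts of *SPINT1* and *TMPRSS11E* are shown because these genes differ in base composition and, in the samples of CFPAC-1, in the sign of their change, although that of *SPINT1* was not called. They come from the RefSeq promoter table (GRCh38.p14), which held windows for 3 of the 8 members (*SPINT1*, *TMPRSS11E* and *HPN*), and each was found once, letter for letter, in GRCh37 at chr15:41135996-41136195 and chr4:69312931-69313130 on the plus strand. They run from 250 to 51 bases before the start, and capitals mark each CpG, a C followed by a G.
SPINT1: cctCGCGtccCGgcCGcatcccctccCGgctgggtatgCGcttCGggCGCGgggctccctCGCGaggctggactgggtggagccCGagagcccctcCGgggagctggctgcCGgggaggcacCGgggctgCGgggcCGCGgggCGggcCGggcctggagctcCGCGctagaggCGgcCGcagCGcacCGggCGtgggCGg
TMPRSS11E: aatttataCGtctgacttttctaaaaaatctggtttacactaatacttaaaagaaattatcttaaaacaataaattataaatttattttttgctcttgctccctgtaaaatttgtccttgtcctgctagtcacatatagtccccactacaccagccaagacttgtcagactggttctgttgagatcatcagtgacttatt
Over the 250 bases before the start shown *SPINT1* had 80.4% GC and 35 CpG, and *TMPRSS11E* had 34.4% GC and 1 CpG. The window of another *SPINT1* start had 70.4% GC and 22 CpG. Across 34788 windows of that length in the table the median was 58% GC and 11 CpG. At least 35 CpG were found in 5.81% of them and at most 1 in 14.7%. Of 3 motifs searched on both strands, TATAAA (the letters of the TATA box, in 10.8% of windows) was found 2 times in the *TMPRSS11E* window. These matches lay 248 to 243 bases (on the complement) and 175 to 170 bases before the start. CAGGTG, the E-box read by ZEB and SNAI factors and present in 17.5% of windows, was found 2 times in the *HPN* window and 1 time in the window of another *SPINT1* start. AACCGGTT, a Grainyhead-like palindrome in 0.115% of windows, was in none of the members' windows. These are matches of letters and not measured binding.

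**Figure D2:**
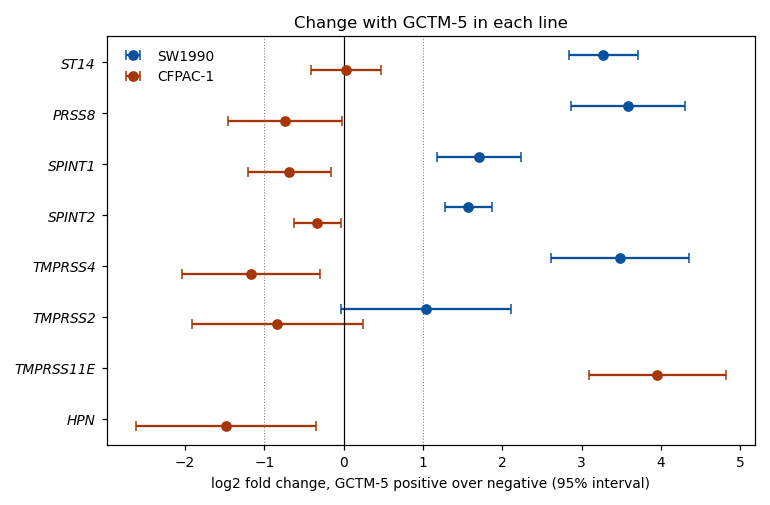
Log2 fold change of GCTM-5 positive over negative cells (horizontal axis) for each gene in SW1990 (blue) and CFPAC-1 (brown), with 95% intervals from limma and dotted lines at 2-fold. *ST14* is at 3.28 in SW1990 and 0.03 in CFPAC-1, and *TMPRSS11E* is at 3.95 in CFPAC-1. SW1990 points are not drawn for *TMPRSS11E* and *HPN*, which had at most 3 reads per sample there.

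Whether the lines differed in their change with GCTM-5 was tested as an interaction. Of the 8 members 5 had a larger change in SW1990 than in CFPAC-1 at a limma adjusted p under 0.05, against 9.16% of all genes, and 1 had a smaller change, against 17.8% of all genes. For *TMPRSS4* the changes differed by 4.65 on the log2 scale (limma adjusted p = 0.000131) and for *PRSS8* by 4.33 (adjusted p = 6.22e-05). The value was 3.25 for *ST14* (adjusted p = 1.49e-05), 2.39 for *SPINT1* (adjusted p = 0.000384) and 1.91 for *SPINT2* (adjusted p = 4.19e-05). *TMPRSS11E*, tested only because of its level in positive CFPAC-1 cells, had -3.75 (adjusted p = 0.000524) and lost the call with voom on reads (adjusted p = 0.0722). Its SW1990 samples held at most 2 reads, so this value depends on the pseudocount, with -1.96 at a pseudocount of 1. For *TMPRSS2* (1.87, adjusted p = 0.0663) and *HPN* (1.17, adjusted p = 0.269) a difference between the lines was not called. For *TMPRSS2* it was called in 4 of 21 alternatives, which were quantile normalization (2.23, adjusted p = 0.0292), a replicate block and the fits without positive SW1990 replicate 1 (2.22, adjusted p = 0.0383) or positive CFPAC-1 replicate 3 (2.43, adjusted p = 0.00946). Every positive sample was above every negative one in SW1990 for 5 members (*ST14*, *PRSS8*, *SPINT1*, *SPINT2* and *TMPRSS4*), against 17.9% of all genes. In CFPAC-1 every positive sample was below every negative one for 4 of these 5, all but *ST14*, against 20.4% of all genes.

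**Figure D3:**
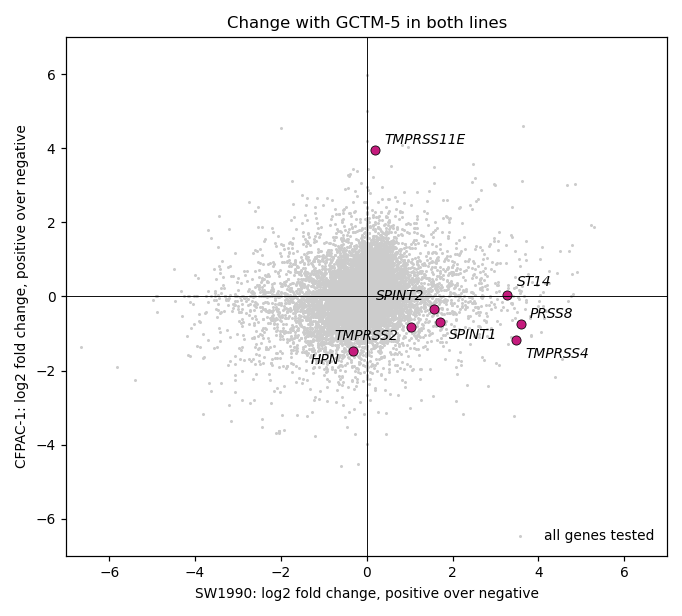
Log2 fold change of positive over negative cells in SW1990 (horizontal axis) and in CFPAC-1 (vertical axis) for the 16236 genes tested (grey) and the 8 members (named). *ST14*, *PRSS8* and *TMPRSS4* lie to the right at 3.28 or above, and *TMPRSS11E* lies at 3.95 on the vertical axis. The SW1990 values of *TMPRSS11E* and *HPN* rest on at most 2 reads in a sample.

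Negative cells of the lines were far apart. In them 7 of 8 members were lower in SW1990 than in CFPAC-1, against 15% of all genes. Among the 7 was *HPN*, which was tested only because of its level in negative CFPAC-1 cells, so its part in this count is no support. By the same criterion 0 were higher, against 21.9% of all genes. The count higher was also 0 by voom and at an unadjusted p under 0.05, for which shares of all genes are not given. The log2 difference was -3.71 for *ST14*, -5.30 for *PRSS8*, -3.11 for *SPINT1*, -2.09 for *SPINT2*, -3.96 for *TMPRSS2* and -8.69 for *TMPRSS4*, with limma adjusted p-values up to 1.62e-05. *HPN* was at least 10.4-fold higher in negative CFPAC-1 than in negative SW1990 cells, with 3 reads per library as the limit for SW1990, and lost its call at a pseudocount of 1 (log2 difference -0.66). For *TMPRSS11E*, which was at least 1.76-fold higher in negative CFPAC-1 cells, the difference was not called (unadjusted p = 0.0137), although it was in 5 alternatives, among them the fits without positive CFPAC-1 replicate 1 or 3.

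Among positive cells 0 of 8 members were higher in SW1990, against 14.8% of all genes by the same criterion. The count higher was also 0 by voom and at an unadjusted p under 0.05, again without a matching share of all genes. In SW1990 3 of 8 members were lower, against 13.7% of all genes. These 3 were *TMPRSS2* (log2 difference -2.09, not called at an unadjusted p of 0.0104 when these 2 groups were fitted alone, and -1.13 at a pseudocount of 1), *TMPRSS4* (-4.04) and *TMPRSS11E*, which was at least 48.6-fold higher in positive CFPAC-1 cells. As *TMPRSS11E* was tested only because of its level in positive CFPAC-1 cells, its part in this count is no support. The core genes were closer than in negative cells, though not shown to be equal. *ST14* differed by -0.46 (95% interval -0.90 to -0.02), *SPINT1* by -0.72 (-1.25 to -0.19) and *PRSS8* by -0.97 (-1.69 to -0.26), none of them past 2-fold. *PRSS8* was called in 3 of 22 alternatives, at -1.01 with median centring, -1.25 without positive SW1990 replicate 2 and -1.18 without positive CFPAC-1 replicate 1, and was at -0.64 without positive SW1990 replicate 1.

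The balance between proteases and inhibitors was read as a ratio of RPKM within each sample, for 6 pairs of genes chosen after their values were seen. *ST14* over *SPINT1* was 0.247 ± 0.0252 in SW1990 cells without the antigen and 0.744 ± 0.0602 in those with it, and went from 0.380 ± 0.0397 to 0.624 ± 0.0633 in CFPAC-1 (SD, n = 3). In both lines all positive samples were above all negative ones. *ST14* over *SPINT2* was likewise higher in all positive samples, at 0.0438 ± 0.00515 against 0.145 ± 0.0153 in SW1990 and 0.137 ± 0.00169 against 0.178 ± 0.0334 in CFPAC-1. *PRSS8* over *ST14* was 1.23 ± 0.273 (negative) and 1.54 ± 0.426 (positive) in SW1990, which overlapped, and 3.65 ± 0.201 and 2.20 ± 0.622 in CFPAC-1, which did not. With 3 samples against 3 the smallest possible p of the 2-sided exact permutation test is 0.1, which was the p of these separated ratios (0.171 after Benjamini-Hochberg adjustment over 12 tests), so that none could pass 0.05. *PRSS8* over *SPINT1* had means of 0.306 (negative) and 1.13 (positive) in SW1990, without overlap (exact permutation p = 0.1) and of 1.38 and 1.35 in CFPAC-1, which overlapped (exact permutation p = 0.8). *SPINT2* over *SPINT1* overlapped in both lines (exact permutation p = 0.5 in SW1990 and 0.2 in CFPAC-1). *TMPRSS4* over *ST14* overlapped in SW1990 at 0.0750 (negative) and 0.107 (positive), with an exact permutation p of 0.5, and was separated in CFPAC-1 at 2.87 and 1.27 (exact permutation p = 0.1).

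**Figure D4:**
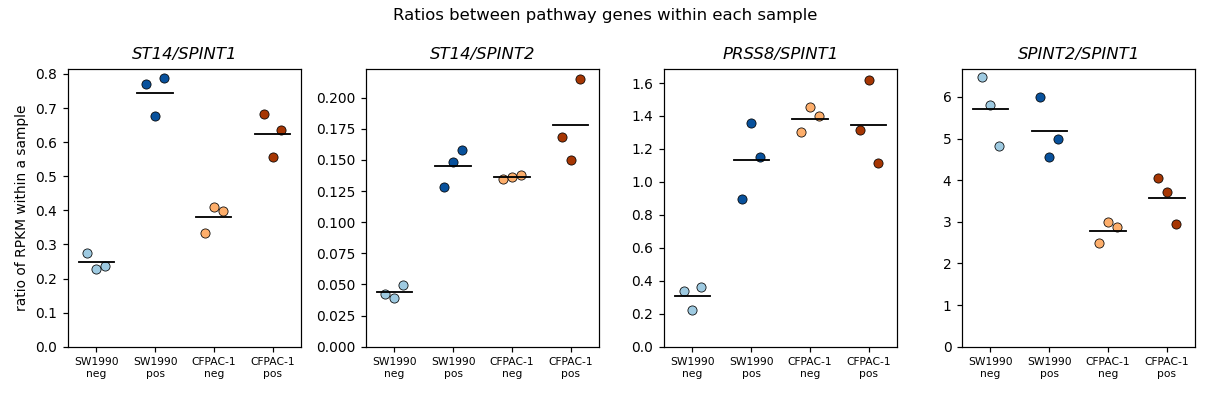
Ratios of RPKM between pathway genes in each of the 12 samples (vertical axis, linear scale), by group, with a point for each sample and a bar for the group mean. The ratio of *ST14* to *SPINT1* spans 0.228 to 0.276 (negative) and 0.676 to 0.788 (positive) in SW1990, and 0.335 to 0.408 (negative) and 0.557 to 0.682 (positive) in CFPAC-1.

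*ST14*, *PRSS8*, *SPINT1* and *SPINT2* moved together across the samples, with Pearson's r of log2(RPKM + 0.1) between 0.935 (*ST14* with *SPINT1*) and 0.988 (*PRSS8* with *SPINT2*) over 12 samples. The 12 samples form 4 groups, so these values describe the group pattern. Among 13261 genes with a mean of at least 1 RPKM, those most like *ST14* were *EPCAM* (r = 0.996), *JUP* (0.995) and *CLDN7* (0.993), which encode epithelial adhesion and junction proteins. Most like *PRSS8* was *CLDN4* (0.996), a claudin of tight junctions, followed by *CXCL16* and *ILDR1*. The leading gene was *LCN2* for *SPINT1* (0.998), *ICA1* for *TMPRSS2* (0.980) and *GPR35* for *TMPRSS4* (0.997). *TMPRSS11E* and *HPN* had means below 1 RPKM and were not matched.

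Other membrane-anchored serine proteases and related serine proteases, not all of them anchored, were mostly low or absent. Of 21 such genes in a list, 10 were tested, and 2 were higher and 1 lower in positive cells of each line, with a median log2 fold change of 0.09 in SW1990 and 0.09 in CFPAC-1. In SW1990 *PRSS22*, which encodes the airway tryptase epsilon, rose from 5.35 ± 1.39 to 63.1 ± 13.2 RPKM (SD, n = 3, log2 fold change 3.54, limma adjusted p = 1.58e-07). In CFPAC-1 it was at 50.4 ± 4.31 and 56.6 ± 4.10 RPKM and was not called. *TMPRSS3* rose in SW1990 (log2 fold change 1.80, adjusted p = 0.00367) and *PRSS33* fell (-2.93, adjusted p = 9.05e-05). CFPAC-1 had other members called, with *TMPRSS15*, the enteropeptidase that activates trypsinogen, going from 0.142 to 0.781 RPKM in the mean (log2 fold change 1.83, adjusted p = 0.000718). *TMPRSS15* had 0 reads in every SW1990 sample. *TMPRSS13* also rose in CFPAC-1 (1.67, adjusted p = 0.00163), from 1.43 to 4.75 RPKM in the mean, and *PRSS27* fell (-1.85, adjusted p = 0.000419). *TMPRSS11A*, *TMPRSS11B* and *TMPRSS11F*, relatives of *TMPRSS11E*, had 0 reads in all 12 samples.

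Of 19 genes for substrates of these proteases and their receptors or partners, 15 were tested. In SW1990 6 rose and 1 fell, with a median log2 fold change of 0.77, and in CFPAC-1 1 rose and 2 fell, with a median of -0.40. *EPCAM*, an adhesion protein that matriptase can cleave, rose from 21.7 ± 4.92 to 176 ± 14.5 RPKM in SW1990 (log2 fold change 3.04, limma adjusted p = 1.58e-07) and was at 237 ± 13.4 and 227 ± 36.2 RPKM in CFPAC-1. *CLDN7*, a claudin that binds EPCAM, rose in SW1990 as well (3.01, adjusted p = 1.15e-06). *F2RL1*, which encodes the protease-activated receptor PAR2, rose from 33.4 to 67.5 RPKM in SW1990 (1.00, adjusted p = 9.80e-05). In CFPAC-1 the group means were 208 RPKM (negative) and 211 RPKM (positive). *MST1R*, the receptor of macrophage-stimulating protein, rose in SW1990 (1.62, adjusted p = 7.37e-05), whereas *MET*, the receptor of hepatocyte growth factor, did not pass 2-fold in either line (0.23 in SW1990 and -0.57 in CFPAC-1). *HGF*, the ligand of *MET*, had 0 reads in all samples. *CDCP1*, a surface glycoprotein cleaved by matriptase, was not called (0.23 and -0.74). *SCNN1A*, the alpha subunit of the epithelial sodium channel that prostasin activates, rose in SW1990 (1.09, adjusted p = 0.00114) and fell in CFPAC-1 (-1.26, adjusted p = 0.000527), with a difference between the lines of 2.36 (adjusted p = 0.000105). The beta and gamma subunits, *SCNN1B* and *SCNN1G*, had group means of at most 0.0816 and 0.122 RPKM and were not tested. *PDGFD* fell in SW1990 (-1.31, adjusted p = 0.00503), from 0.377 to 0.0918 RPKM. In CFPAC-1 *TFRC*, the transferrin receptor, rose (1.23, adjusted p = 4.87e-05) and *IGFBP7* fell (-1.93, adjusted p = 0.000101).

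**Figure D5:**
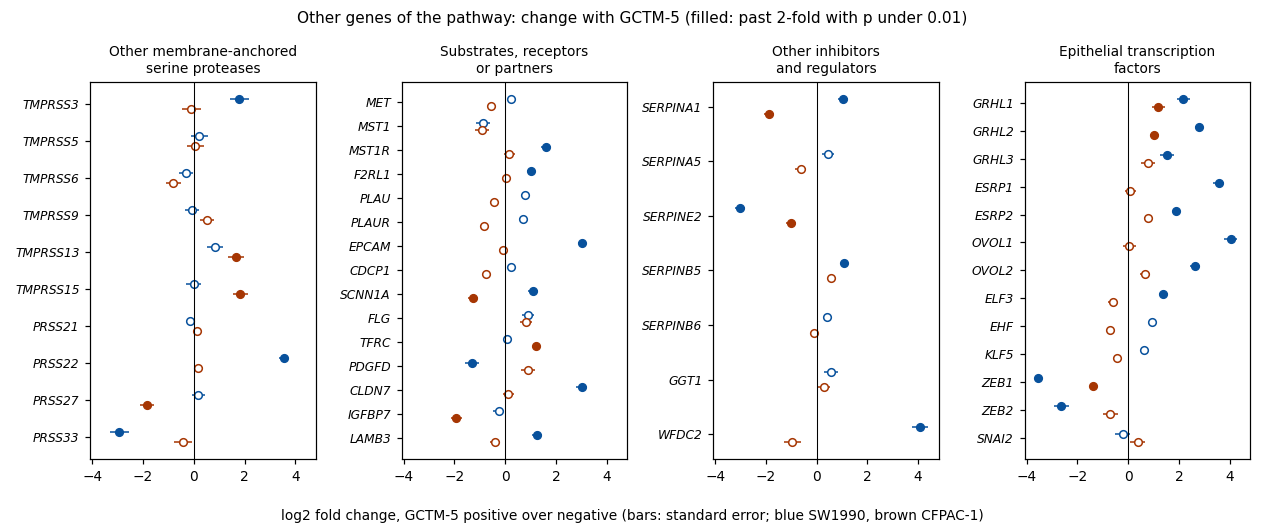
Log2 fold change of positive over negative cells (horizontal axis) in SW1990 (blue) and CFPAC-1 (brown) for the tested genes of 4 lists, with bars for the standard error and filled points for called genes. *EPCAM* and *CLDN7* are at 3.04 and 3.01 in SW1990 and at -0.08 and 0.11 in CFPAC-1. *TMPRSS15*, drawn at 0 for SW1990, had no reads in that line.

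Of 12 other inhibitors and regulators, 7 were tested, of which 3 rose and 1 fell in SW1990 and 2 fell in CFPAC-1 (medians 0.56 and -0.64). *WFDC2*, a secreted protein with whey acidic domains, rose from 2.13 to 35.6 RPKM in SW1990 (log2 fold change 4.07, limma adjusted p = 3.00e-06), and *SERPINB5* (maspin) rose by 1.09 (adjusted p = 4.10e-05). *SERPINE2*, a serpin that inhibits prostasin, fell in both lines, by a log2 fold change of -3.02 in SW1990 (adjusted p = 5.32e-07) and -1.03 in CFPAC-1 (adjusted p = 0.00197). *SERPINA1*, alpha-1 antitrypsin, fell in CFPAC-1 from 229 to 63.4 RPKM (-1.88, adjusted p = 5.60e-05) and rose in SW1990 (1.02, adjusted p = 0.00202), a difference between the lines of 2.90 (adjusted p = 2.77e-05).

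A list of 13 genes held epithelial transcription factors, the splicing factors *ESRP1* and *ESRP2*, and repressors of epithelial genes. All were tested, and 8 rose and 2 fell in SW1990, and 2 rose and 1 fell in CFPAC-1 (medians 1.52 and 0.09). *OVOL1* (4.04, limma adjusted p = 4.86e-07) and the splicing factor *ESRP1* (3.56, adjusted p = 2.69e-07) rose most in SW1990. *ZEB1*, a repressor of epithelial genes, fell in SW1990 from 32.0 to 2.63 RPKM (-3.56, adjusted p = 1.48e-08) and in CFPAC-1 from 6.79 to 2.51 RPKM (-1.39, adjusted p = 1.91e-05). Its relative *ZEB2* fell in SW1990 (-2.64, adjusted p = 3.73e-05). *GRHL2*, a factor of epithelial junction genes, rose in both lines (2.81, adjusted p = 2.52e-07, and 1.04, adjusted p = 0.000534), as did *GRHL1* (2.17, adjusted p = 5.28e-05, and 1.18, adjusted p = 0.00403).

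Markers of cell state moved with these genes in SW1990. The summed RPKM of 7 ductal epithelial markers lay between 1632 and 1974 in SW1990 when negative and between 4753 and 5155 when positive, with 6 of 7 called higher. In CFPAC-1 it lay between 5912 and 6651 and between 6931 and 8474, with 0 of 7 called by limma. *KRT8*, *KRT18* and *KRT19* made up most of this sum. In CFPAC-1 4 of the 7 had log2 fold changes above 0, whereas *MUC1* (-0.82), *KRT19* (-0.14) and *EPCAM* (-0.08) were below 0. The summed RPKM of 5 mesenchymal markers lay between 1289 and 1451 (negative) and between 201 and 372 (positive) in SW1990, with 5 of 5 called lower. In CFPAC-1 it lay between 551 and 752 and between 420.3 and 589, with 2 of 5 called lower (*ZEB1* and *SPARC*). Most of this sum was *VIM*, at means of 1208 (negative) and 245 RPKM (positive) in SW1990 and 598 and 463 RPKM in CFPAC-1. Fewer cells of a type and less RNA per cell cannot be told apart in such bulk samples, and the part of these markers in the results was not tested. Leukocyte markers summed to between 34.6 and 48.5 RPKM in SW1990 when negative and between 15.4 and 33.0 RPKM when positive. Both that were tested were called lower there (*CD68*, log2 fold change -1.02, and *CD14*, -1.97). Most of this sum was *CD68*, at means of 42.0 (negative) and 21.7 RPKM (positive) in SW1990 and 120 and 138 RPKM in CFPAC-1. The group means of *PTPRC* and *CD3E* were at most 0.0163 and 0.0235 RPKM. In CFPAC-1 the leukocyte markers summed to 112 to 167 RPKM, with *CD14* called lower (-1.54). *CD3E* was at 0 in SW1990 and *PTPRC* at 0 in negative CFPAC-1 cells. Endothelial markers summed to between 14.8 and 18.8 RPKM in SW1990 when negative and between 1.47 and 2.05 RPKM when positive, and to at most 0.485 RPKM in CFPAC-1. In SW1990 1 of 2 tested was called lower (*CDH5*, -3.46, from 15.6 to 1.33 RPKM). The other endothelial markers, *PECAM1* and *VWF*, had group means of at most 0.717 and 0.202 RPKM. The part of these markers was likewise not tested. Acinar and hepatocyte markers summed to at most 0.295 and 0.0737 RPKM.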

How the data were processed

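RNA of GCTM-5 positive and negative cells of SW1990 and CFPAC-1 was measured in 3 samples per group. The RPKM values were deposited by the authors, who mapped to hg19/GRCh37 and quantified with QuasR, and the annotation, the use of strand and the handling of reads matching several genes are not given in the sources used here. The study and the sample labels name different library kits. The study describes triplicate sorts and does not say whether they came from separate cultures, so p-values measure the spread between these samples, which may be technical. TCC, which the study names, needs counts and was not used.

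Genes with a mean of at least 0.1 RPKM were kept, and log2(RPKM + 0.1) was fitted with limma 3.58.1 (R 4.3.3, eBayes with a trend, 4 group means). Tests were 2-sided. Called means past 2-fold with an unadjusted p under 0.01, and a difference between lines had to reach 0.05 after Benjamini-Hochberg adjustment over all 16236 genes. Steps of the RPKM values gave whole reads (within 0.01) for the 19654 genes above 0 in any sample, and these reads served for depth, bounds (floor of 3 reads per library) and voom. Depth limits what is seen for genes of few reads, and floors cover counting error only. Scripts were checked on simulated data. Python 3.11.15, pandas 2.3.3, numpy 2.4.6, scipy 1.17.1, numba 0.67.0 and matplotlib 3.10.9 were used. Positions are those of GENCODE 44 mapped to GRCh37.

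The members and lists were chosen with earlier results of these data known. Named were all members, the 2 largest and 2 smallest called changes per list and line, *EPCAM*, *CDCP1*, *F2RL1*, *MET* and *MST1R* at any value, and genes among the 3 most like each member. Some other genes, such as those with few or no reads, were named for context. A gene of the substrate list is not reported here and was left out of that list's counts. Alternatives were pseudocounts of 1 and 0.01, no filter or a minimum of 1 RPKM, median centring, quantile normalization, each comparison fitted on its own groups, eBayes with no trend, voom, a replicate block, calls by adjusted p under 0.05 with no fold threshold, and each sample left out in turn. Leaving out the SW1990 samples of number 1 or the CFPAC-1 samples of number 3 was chosen after seeing the data.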

Additional observations from a re-analysis of the deposited data

Results flagged for a closer look

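In 6 of 8 genes the change with GCTM-5 differed between the lines by limma's test of the interaction. It was larger in SW1990 for 5, against 9.16% of all genes, and smaller for 1, against 17.8% of all genes. Values are the log2 fold change in SW1990 minus that in CFPAC-1. The value was 3.25 for *ST14*, 2.39 for *SPINT1*, 1.91 for *SPINT2*, 4.33 for *PRSS8* and 4.65 for *TMPRSS4*. For *TMPRSS11E*, with at most 2 reads in any SW1990 sample, it was -3.75, and -1.96 at a pseudocount of 1. That gene lost the call with voom on reads (adjusted p = 0.0722) and was tested only because of its level in positive CFPAC-1 cells. Groups of 3 samples were too small for a search for single samples standing apart.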

How the results depend on the processing

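Of 878 alternatives over 40 fold changes of the members, 843 kept the call without turning direction, 27 gained a call, 3 lost it (*HPN* in negative cells at a pseudocount of 1, *TMPRSS2* in positive cells with the 2 groups alone, and the *TMPRSS11E* difference with voom) and 5 turned direction. Among the 843, *TMPRSS11E* in SW1990 was at 0 without positive SW1990 replicate 3, which held its 2 reads. All 5 that turned were of *ST14* in CFPAC-1 (0.03), which was -0.070 with median centring, -0.041 with quantile normalization, -0.15 without both CFPAC-1 samples of number 3, and -0.16 to 0.16 with single samples left out, below 0 without negative CFPAC-1 replicate 1 or positive CFPAC-1 replicate 3. The count of members lower in CFPAC-1, 0, was 1 with a pseudocount of 1, median centring, quantile normalization, the 2 groups alone or the replicate block, 0 to 1 with single samples left out, 2 with voom and 3 with an adjusted p under 0.05 and no fold threshold. That last rule gave 6 in place of 3 members lower in positive SW1990 than positive CFPAC-1 cells. For these other settings and rules the shares of all genes are not given, so the counts have no background to be read against. The 1 higher in CFPAC-1 and the 1 with a smaller change in SW1990, *TMPRSS11E*, were 0 at a minimum of 1 RPKM, which leaves it untested, and the latter was 0 with voom, where the cause was not tested. The replicate numbers are not stated to pair samples, and same-numbered samples had correlations between 0.02 and 0.18 (SW1990) and between -0.06 and 0.00 (CFPAC-1). With the replicate block the *TMPRSS2* difference between lines was called (adjusted p = 0.0452), and 1961 genes were called in SW1990 (1961 without), 1587 in CFPAC-1 (1588) and 4130 for the difference (4374). Calls in CFPAC-1 were higher in 57.7% as deposited, 45.8% after centring and 51.5% after quantile normalization. Depth limits *HPN* and *TMPRSS11E* in SW1990, where no sample held more than 2 reads.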
